A study of Mus musculus with 2 samples.

Results

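The Wnt ligands described here are Wnt2, Wnt2b, Wnt4, Wnt5a, Wnt5b, Wnt6, Wnt9a and Wnt11, named as a family and listed in the tables of both single-cell libraries. They are 8 of the 19 mouse Wnt genes, of which the wild-type table lists 13 among 17809 genes and the reporter table lists 10 among 15972 genes. Their levels were compared across epithelial, fibroblast, smooth muscle, pericyte, endothelial and glial cells, with each cell assigned by lists of marker genes that hold no Wnt gene.

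The study asked which cells around the crypts of the mouse colon provide niche signals to the epithelium. The wild-type colon library came from C57BL/6 mice and mixed epithelial cells (EpCAM+, CD45-) with other non-immune cells (EpCAM-, CD45-) in equal parts after sorting, using version 3 of the droplet kit. The Pdgfra-H2B-eGFP colon library held GFP-positive mesenchymal cells of reporter mice, in which a green nuclear protein marks cells that express the growth factor receptor gene Pdgfra, using version 2 of the kit. Each library pooled cells from 3 female mice of 8 to 12 weeks, so each condition is 1 sample, no value has a replicate, and strain, sort, kit and library cannot be told apart.

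The wild-type library held 7495 cells with a median of 2804 genes detected, and the reporter library 4409 cells with a median of 1381. The tables are labelled as raw counts, but their values read as UMI counts already corrected for depth, with totals of 6120 to 16389 per cell in the wild-type library and 2314 to 4432 in the reporter library. A level below is the class average of these corrected counts, and a share is the percentage of cells with a value above 0, given with its 95% Clopper-Pearson interval. These intervals, and the upper limits given for shares of 0 (3 divided by the cells of the class), cover counting error only. The libraries had 1 cell barcode in common.

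In the wild-type library 6951 cells (92.7%) fell into a class, among them 2763 epithelial cells, 2553 fibroblasts, 919 smooth muscle cells, 552 endothelial cells, 90 pericytes and 74 glial cells. Fibroblasts were divided into crypt-top fibroblasts (CTFs, 837 cells) and crypt-bottom fibroblasts (CBFs), the latter into CBFs1 (1309 cells) and CBFs2 (407 cells). The reporter library held 562 CTFs, 3244 CBFs1 and 422 CBFs2, besides 34 epithelial and 7 smooth muscle cells. Median genes detected in the wild-type library were 2432 in CTFs, 2594 in CBFs1, 2859 in CBFs2, 2629 in smooth muscle, 2044.5 in pericytes, 2041.5 in endothelial cells, 2315 in glia and 3145 in epithelial cells. In the reporter library they were 1549.5 in CTFs, 1364.5 in CBFs1 and 1338 in CBFs2.

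Most marker lists were highest in the class they name. Summed over its 10 genes, the glial list had a level of 44.3 in glial cells and at most 0.189 in epithelial, smooth muscle, pericyte and endothelial cells, and the smooth muscle list had 154 in smooth muscle and 0.456 in epithelial cells. The fibroblast classes are ranges along scores: 91 wild-type fibroblasts (3.56%) and 271 reporter fibroblasts (6.41%) lay within 0.1 of the boundary between CTFs and CBFs, and 140 wild-type CBFs (8.16%) and 390 reporter CBFs (10.6%) within 0.1 of the boundary of CBFs2. The fibroblast list also summed to 77.4 in smooth muscle, 47.1 in pericytes and 32.6 in glia, against 155 in CTFs and 233 in CBFs1. The CTFs list summed to 35.2 in CTFs, 24.6 in smooth muscle and 17.5 in CBFs1, and its member Postn was lower in CTFs (11.5) than in CBFs1 (14.9) and smooth muscle (18.7). Ogn, on the CBFs list, had its highest level in CTFs (22.1). The smooth muscle list was also higher in CTFs, with a summed level of 11.6 against 1.35 in CBFs1 and 0.821 in CBFs2 of the wild-type library, led by Tagln (8.22 in CTFs). In the reporter library the same list summed to 5.43 in CTFs and 0.587 in CBFs1. The part of these overlaps in the values of CTFs, smooth muscle and glia was not tested.

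Wnt ligands are secreted, lipid-modified glycoproteins that bind Frizzled receptors on nearby cells. Ligands called canonical act through Lrp co-receptors to stabilise beta-catenin, while those called non-canonical, with Wnt5a as the usual example, direct cell polarity and movement through receptors such as Ror2. In the intestine, Wnt signals from cells below the epithelium help to maintain the stem cells at the crypt base, and R-spondins amplify them.

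Wnt2, a canonical ligand that acts with Wnt2b in lung development, was a gene of CBFs. The gene lies on the minus strand at chr6:17988940-18030585 (GRCm38). It was detected in 249 of 1309 CBFs1 (16.9 to 21.3%), with a level of 0.261, and in 15.0% of CBFs2 (11.7 to 18.8%), with a level of 0.197. In CTFs 5 of 837 cells had it (0.597%, 0.194 to 1.39%), against 0.181% of epithelial cells (0.0588 to 0.422%). Smooth muscle had 0.979%, no pericyte or glial cell had it (limits 3.33% and 4.05%), and of the endothelial cells 0 of 520 blood (limit 0.577%) and 2 of 32 lymphatic cells did. Fibroblasts held 96.2% of the Wnt2 values of all classed cells. Reporter cells had a share of 8.38% in CBFs1 (7.45 to 9.39%), 6.87% in CBFs2 (4.65 to 9.72%) and 0.178% in CTFs (0.0045 to 0.987%, 1 cell). CBFs1 and CBFs2 therefore overlapped in both libraries, and CTFs lay below both.

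Wnt2b, a canonical ligand whose loss in humans causes an enteropathy, was likewise highest in CBFs1. It lies on the minus strand at chr3:104945272-104961921. Its share was 20.1% in CBFs1 (18.0 to 22.4%) at a level of 0.248, 12.5% in CBFs2 (9.47 to 16.1%) and 3.35% in CTFs (2.23 to 4.80%). Smooth muscle had 4.57% (3.31 to 6.13%), which overlapped CTFs, while epithelial cells had 0.290% and endothelial cells 0 of 552 (limit 0.543%). Of the reporter cells, CBFs1 had 5.21% (4.47 to 6.03%), CBFs2 0.948% (0.259 to 2.41%) and CTFs 0.534% (0.110 to 1.55%). Wnt2b thus stood lower in CBFs2 than in CBFs1 in both libraries, without overlap of the intervals.

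Wnt4, needed for kidney tubules and the female reproductive tract to form, was shared by CTFs and CBFs1 and low in CBFs2. It lies on the plus strand at chr4:137277489-137299726. Its share was 55.9% in CTFs (52.5 to 59.3%) and 53.9% in CBFs1 (51.1 to 56.6%), with overlapping intervals and levels of 2.15 and 1.87. CBFs2 had 8.85% (6.27 to 12.04%) at a level of 0.201, which overlapped smooth muscle with 12.5% (10.4 to 14.8%). Blood endothelial cells had 2.50% (1.34 to 4.24%), epithelial cells 1.45% (1.04 to 1.97%), and none of the 74 glial cells had it. Among reporter fibroblasts CBFs1 had 29.4% (27.9 to 31.0%) and CTFs 26.9% (23.2 to 30.7%), again overlapping, and CBFs2 had 2.84% (1.48 to 4.91%).

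Wnt5a, the non-canonical ligand needed for the gut to elongate in the embryo, was the ligand of CTFs. It lies on the plus strand at chr14:28504750-28527448. Its share was 66.5% in CTFs (63.2 to 69.7%), at a level of 2.60 and with values of up to 28. Smooth muscle followed with 35.0% (32.0 to 38.2%) and CBFs2 with 28.3% (23.9 to 32.9%), whose intervals overlapped, while CBFs1 had 18.8% (16.7 to 21.0%). Epithelial cells had 1.85% (1.38 to 2.42%) and endothelial cells 1.09% (0.400 to 2.35%), so smooth muscle and all 3 fibroblast classes stood far above both. CTFs held 66.4% of the Wnt5a values of classed cells and smooth muscle 14.4%. Reporter CTFs had 49.6% (45.4 to 53.9%) at a level of 0.875, CBFs2 12.1% (9.13 to 15.6%) and CBFs1 7.34% (6.46 to 8.29%), the same order as in the wild-type library.

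Wnt5b, the close relative of Wnt5a, was also highest in CTFs, with CBFs1 close behind. The gene lies on the minus strand at chr6:119432531-119544347. Its share was 34.3% in CTFs (31.1 to 37.6%) at a level of 0.535, 28.6% in CBFs1 (26.2 to 31.2%) at 0.372, and 14.5% in CBFs2 (11.2 to 18.3%). CTFs and CBFs1 were next to each other, their intervals touching at 31.1 and 31.2%. Pericytes had 8.89% (3.92 to 16.8%, 8 of 90 cells), smooth muscle 7.94% (6.28 to 9.88%) and epithelial cells 0.977% (0.645 to 1.42%). No endothelial cell of 552 had it. Reporter CTFs had 21.0% (17.7 to 24.6%), CBFs1 18.96% (17.6 to 20.4%) and CBFs2 7.82% (5.44 to 10.8%).

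Wnt6, a canonical ligand known from the surface ectoderm of the embryo, was the ligand of the glia. It lies on the plus strand at chr1:74771892-74785322, followed on the same strand by Wnt10a (chr1:74791516-74804179), which had values in 5 cells of the wild-type library. Of the 74 glial cells, 30 had Wnt6 (40.5%, 29.3 to 52.6%), at a level of 0.851. Smooth muscle had 11.2% (9.24 to 13.4%) at 0.133, CTFs 5.26% (3.85 to 6.99%), CBFs1 3.90% (2.91 to 5.09%) and CBFs2 1.97% (0.852 to 3.84%). Epithelial cells had 1.01% (0.674 to 1.46%), within which goblet cells had 0.238% and colonocytes 1.78%, and endothelial cells had 0 of 552. Since the glial class was small, it held 19.03% of all Wnt6 values of classed cells, smooth muscle 36.9% and fibroblasts 34.4%. The reporter library had no cell in the glial class, and 32 of its cells had Wnt6: 1.96% of CTFs (0.981 to 3.48%), 0.617% of CBFs1 (0.377 to 0.951%) and 1 of 422 CBFs2.

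Wnt9a, which takes part in the formation of joints, and Wnt11, a non-canonical ligand that takes part in the branching of the kidney, marked CBFs2. Wnt9a lies at chr11:59306928-59333552 and Wnt11 at chr7:98835112-98855195, both on the plus strand. Wnt9a had a share of 12.8% in CBFs2 (9.69 to 16.4%), against 1.76% in CBFs1 (1.12 to 2.62%), 0.956% in CTFs (0.414 to 1.87%) and 0.253% in epithelial cells (0.102 to 0.521%). Wnt11 had 17.4% in CBFs2 (13.9 to 21.5%), against 2.44% in CBFs1 (1.68 to 3.43%), 1.31% in CTFs (0.658 to 2.34%) and 1.23% in epithelial cells (0.854 to 1.72%). For Wnt11 the share of CTFs was thus at the level of the epithelium, while CBFs2 stood above it for both genes, and CBFs1 did for Wnt9a. CBFs2 made up 407 of the classed cells and held 50.9% of the Wnt9a and 49.2% of the Wnt11 values.

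Both genes were sparse in reporter cells. Wnt9a had 2.84% in CBFs2 (1.48 to 4.91%), 0.986% in CBFs1 (0.676 to 1.39%) and 0.890% in CTFs (0.289 to 2.06%). Wnt11 had 3.79% in CBFs2 (2.18 to 6.08%), 0.894% in CBFs1 (0.599 to 1.28%) and 0.356% in CTFs (0.0431 to 1.28%). CBFs2 stood above CBFs1 for both, as in the wild-type library. None of the 34 epithelial cells of the reporter library had any of the 8 ligands (limit 8.82%).

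**Figure D1:**
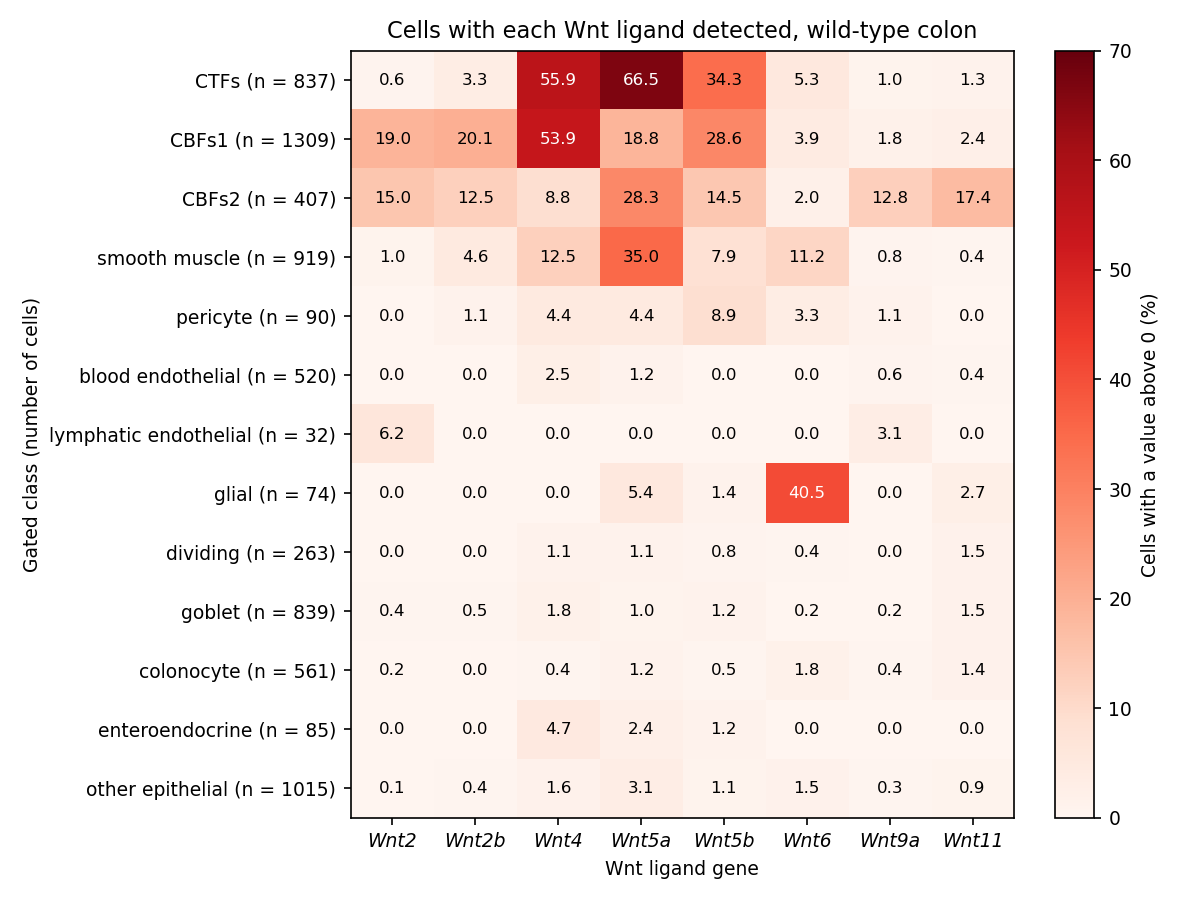
Percentage of cells with a value above 0 for each of the 8 Wnt ligands (columns) in 13 gated classes of the wild-type colon library (lines, with cell numbers), printed in each field and shaded from 0 to 70%. Wnt5a is darkest in CTFs (66.5%) and Wnt6 in glial cells (40.5%), and the epithelial lines are pale throughout.

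Wnt9a and Wnt11 shared their highest class, and Wnt6 had its highest class in the glia, so the sequence before a start of each is shown. The promoter table of RefSeq (GRCm38.p6) had an entry for 7 of the 8 ligands, with none for Wnt5a. Each run is the 250 bases before an annotated start, read 5′ to 3′ on the plus strand, from chr7:98834862-98835111 for Wnt11, chr11:59306680-59306929 for Wnt9a (its last 2 bases lie in the exon as annotated by GENCODE) and chr1:74771642-74771891 for Wnt6. Capitals mark the TATA box TATAAA, the GC box GGGCGG, the E-box CACGTG and the forkhead motif GTAAACA, each searched on both strands, so that GC boxes on the other strand read CCGCCC.
Wnt11: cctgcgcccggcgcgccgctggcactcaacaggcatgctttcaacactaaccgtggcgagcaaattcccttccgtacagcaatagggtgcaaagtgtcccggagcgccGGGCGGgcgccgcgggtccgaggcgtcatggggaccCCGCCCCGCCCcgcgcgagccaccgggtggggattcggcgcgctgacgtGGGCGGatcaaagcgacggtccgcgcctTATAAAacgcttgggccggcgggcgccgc
Wnt9a: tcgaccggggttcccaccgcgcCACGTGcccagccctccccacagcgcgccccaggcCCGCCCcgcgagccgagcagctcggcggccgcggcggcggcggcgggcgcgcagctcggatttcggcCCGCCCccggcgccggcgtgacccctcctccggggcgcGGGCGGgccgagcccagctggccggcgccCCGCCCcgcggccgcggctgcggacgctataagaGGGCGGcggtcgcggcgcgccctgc
Wnt6: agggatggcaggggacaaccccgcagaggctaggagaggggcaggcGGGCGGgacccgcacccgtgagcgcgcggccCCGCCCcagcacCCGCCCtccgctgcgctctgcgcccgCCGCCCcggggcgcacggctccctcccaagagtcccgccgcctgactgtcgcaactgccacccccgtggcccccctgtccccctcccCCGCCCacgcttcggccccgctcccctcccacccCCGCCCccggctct

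The Wnt11 sequence held 4 GC boxes and 1 TATA box, the Wnt9a sequence 5 GC boxes and 1 E-box, and the Wnt6 sequence 6 GC boxes. A further Wnt11 start, with the bases chr7:98838595-98838844 before it, had no GC box and no TATA box and 56.8% G and C. The forkhead motif was in none of the promoters of the 7 ligands, and the numbers of GC boxes in those not shown ran from 0 to 8. They were 8 for Wnt4, 3 for Wnt2b, 1 for Wnt2 and 1, 0 and 2 for the Wnt5b starts, where 146 of the 250 bases for Wnt4, 212 for Wnt2b and 140 for Wnt2 lie in exons of the gene as annotated by GENCODE. Among all 32851 promoters of this length 32.7% held a GC box, 12.4% a TATA box, 6.02% an E-box and 3.17% the forkhead motif. The 3 sequences were rich in G and C, with 70.8% for Wnt11, 84.4% for Wnt9a and 79.6% for Wnt6 against a median of 52.4% over all promoters. These matches describe the letters alone.

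Within the epithelium, each of the 8 ligands was low in every kind of cell. At least 1 ligand was detected in 6.33% of epithelial cells (5.45 to 7.31%) and in 4.62% of blood endothelial cells (2.98 to 6.79%). Wnt4 was detected in 4 of 85 enteroendocrine cells (4.71%, 1.297 to 11.6%) and 1.79% of goblet cells (1.00 to 2.93%), which overlapped. Wnt5a was detected in cells outside the named kinds with 3.05% (2.08 to 4.31%) against 0.954% in goblet cells (0.413 to 1.87%). The 51 epithelial cells with Wnt5a also had Wnt4 in 17.6% (8.40 to 30.9%), against 1.14% (0.778 to 1.62%) of the epithelial cells lacking Wnt5a, with a median of 3284 and 3138.5 genes. For comparison, the fibroblast marker list summed to 2.16 in epithelial cells against 227 in fibroblasts. The epithelial list summed to 4.76 in CBFs1, 9.22 in pericytes and 8.57 in endothelial cells against 179 in epithelial cells. No background from free RNA was taken off any share. Whether RNA of another class is behind the epithelial shares was not tested.

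The comparison of CTFs with CBFs asks how ligand levels differ along the crypt axis that the fibroblast classes are named for. Wnt5a was 7.93-fold higher in CTFs of the wild-type library (2.60 against 0.319 in CBFs; log2 ratio 2.99) and 8.27-fold higher in those of the reporter library (0.875 against 0.0971; log2 ratio 3.05). Wnt2 had log2 ratios of -3.71 and -3.15 in these libraries. Wnt2b had -2.19 and -1.97. Wnt11 had -1.88 in the wild-type library and -0.83 in the reporter library, and Wnt9a -1.43 and -0.25. Ratios were taken between class means with 0.01 added to each, which draws those of scarce genes towards 0. Wnt4 (0.54 and 0.08), Wnt5b (0.71 and 0.19) and Wnt6 (0.43 and 0.89) had ratios of less than 2-fold in both libraries with this addition. For Wnt6 in the reporter library the class means themselves, 0.0196 in CTFs and 0.00600 in CBFs, lay more than 2-fold apart.

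With 1 library each, no test was possible, and genes past 2-fold were counted among those with at least 20 summed values, which all 8 ligands passed. In the wild-type library 1 ligand (Wnt5a) was at least 2-fold higher in CTFs, where 5.29% of 12936 genes were, and 4 (Wnt2, Wnt2b, Wnt9a and Wnt11) were at least 2-fold lower, where 7.49% were. Among reporter cells 1 ligand (Wnt5a) was higher, where 5.04% of 12528 genes were, and 2 (Wnt2 and Wnt2b) were lower, where 4.11% were. The median log2 ratio of the 8 ligands was -0.50 and -0.09 in the libraries, beside -0.03 and 0.17 over all genes. All 8 ratios had the same sign in both libraries, though Wnt4 (0.08), Wnt5b (0.19) and Wnt9a (-0.25) were near 0 in the reporter library. The share of all genes that kept their sign was not taken, so this count sets the ligands apart from no other genes. Fibroblasts were also divided by their Pdgfra value alone, at 4 or more in the wild-type and 1 or more in the reporter library. The reporter division thus set 1315 cells with Pdgfra detected against 2913 without, and 339 of the 1315 were CTFs by the marker lists. It is not the same division as in the wild-type library. Wnt9a then had a log2 ratio of 0.16 in the wild-type library, and Wnt9a (0.42) and Wnt11 (0.28) were above 0 in the reporter library. Wnt2 (-0.27) and Wnt2b (-0.22) then fell short of 2-fold in the reporter library, which left 0 ligands lower there, and Wnt2 alone stayed past 2-fold in the wild-type library. With this division 0.0399% of all genes were lower in the reporter library and 1.56% in the wild-type library, so few genes of any kind passed. The 4 lower ligands of the wild-type library became 2 (Wnt2 and Wnt2b) when thinned to 1000 values or with 0.1 added to each mean, and 3 (without Wnt9a) with at least 100 summed values. Of all genes 4.46% were lower when thinned, 2.57% with 0.1 added and 6.81% with at least 100 summed values.

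The comparison of CBFs2 with CBFs1 was added after the values had been seen. Wnt11 had a log2 ratio of 2.54 in the wild-type library (0.221 against 0.0298) and 1.18 in the reporter library (0.0379 against 0.0111). Wnt9a had 2.42 and 0.91. At the other end Wnt4 had -3.15 and -3.24, Wnt5b -1.11 and -1.37, and Wnt2b -0.80 and -1.75. With 0.01 added to each mean, Wnt5a (0.70 and 0.56), Wnt2 (-0.39 and -0.32) and Wnt6 (-0.89 and -0.41) differed by less than 2-fold. For Wnt6 the class means themselves lay more than 2-fold apart in both libraries. They were 0.0197 in CBFs2 and 0.0451 in CBFs1 of the wild-type library, and 0.00237 and 0.00647 in the reporter library. In reporter CBFs2 the Wnt6 mean rests on 1 cell. When cells were thinned, Wnt2 in the wild-type library changed sign to 0.60. This rests on 11 of 407 CBFs2 (1.36 to 4.78%) and 21 of 1309 CBFs1 (0.996 to 2.44%), which overlapped. Thus Wnt9a and Wnt11 stood opposite Wnt4 within the CBFs.

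In the wild-type library 2 ligands (Wnt9a and Wnt11) were at least 2-fold higher in CBFs2, where 6.65% of 12244 genes were, and 2 (Wnt4 and Wnt5b) were lower, where 3.86% were. Among reporter cells 1 ligand (Wnt11) was higher, where 2.65% of 12102 genes were, and 3 (Wnt2b, Wnt4 and Wnt5b) were lower, where 4.75% were. The median log2 ratio of the 8 ligands was -0.60 and -0.37, beside 0.13 and -0.07 over all genes. CBFs2 differed from the other classes in the share of cells with over 10% mitochondrial values, 9.58% against 35.1% of CBFs1 and 41.3% of CTFs in the wild-type library, and had the most genes detected of the wild-type fibroblast classes and the fewest of the reporter ones. Without the cells over 10% mitochondrial values Wnt11 had 2.49, Wnt9a 2.30 and Wnt4 -3.25 in the wild-type library, and Wnt6 went past 2-fold at -1.04. With all cells thinned to 1000 values Wnt4 had -3.16, Wnt9a 1.60 and Wnt11 0.47. For reporter cells Wnt11 was no longer counted as higher when thinned, with 0.1 added to each mean, or with at least 100 summed values. Of all genes 1.86%, 0.702% and 2.26% were higher under these settings. With 0.1 added Wnt4 was the 1 ligand still lower in each library, where 1.13% of wild-type and 0.702% of reporter genes were.

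**Figure D2:**
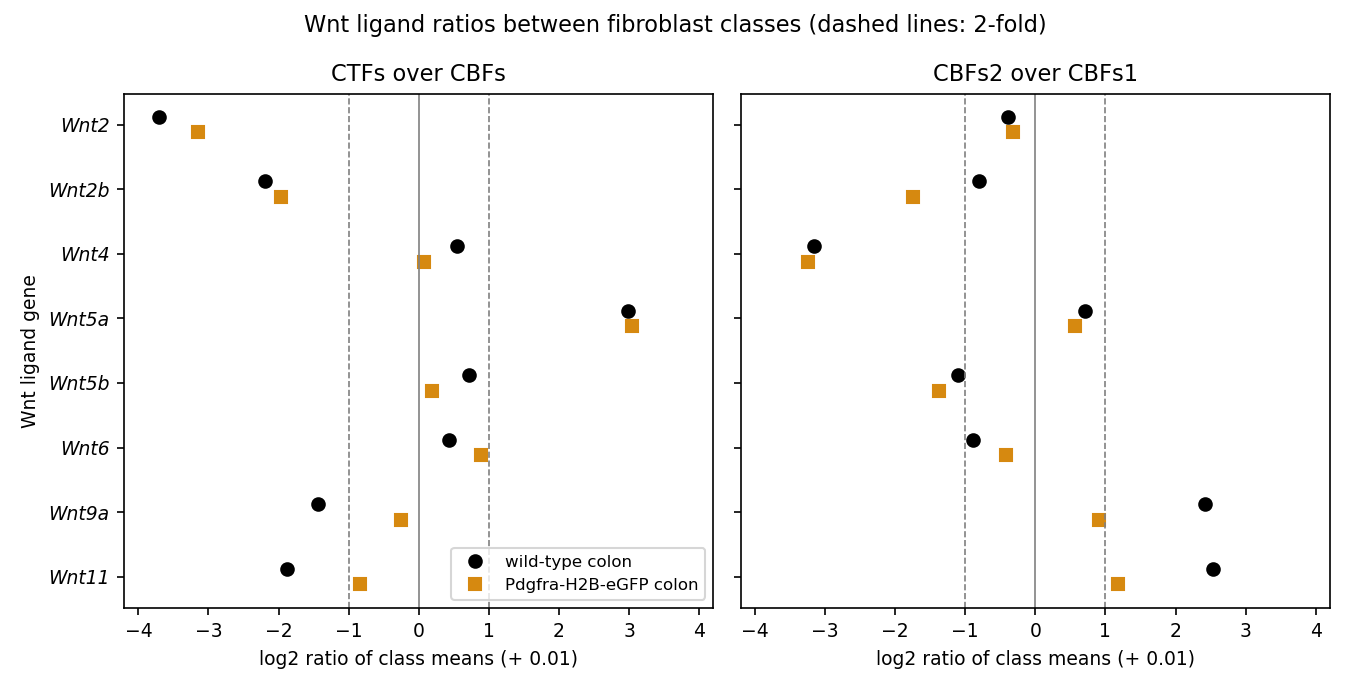
Log2 ratios of class means (horizontal axis, 0.01 added to each mean) of the 8 Wnt ligands for CTFs over CBFs (left) and CBFs2 over CBFs1 (right), with circles for the wild-type and squares for the reporter library and dashed lines at 2-fold. Wnt5a lies near 3 on the left in both libraries (2.99 and 3.05), and Wnt4 lies below -3 on the right in both (-3.15 and -3.24).

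Shares of the libraries differ in depth and cannot be set side by side as they are, so every cell was also thinned to 1000 values, a depth that all cells reached. Wnt5a was then detected in 21.5% of wild-type CTFs (18.8 to 24.4%, 66.5% before thinning) and 21.0% of reporter CTFs (17.7 to 24.6%, 49.6% before). In CBFs1 it had 2.52% (1.74 to 3.52%) and 2.65% (2.13 to 3.26%), so at an equal total of corrected values the libraries overlapped in both classes, though genes detected and kit were not matched. Wnt4 was detected in 17.4% of wild-type CBFs1 (15.4 to 19.6%) and 11.5% of reporter CBFs1 (10.4 to 12.6%), and in 167 of 837 (17.3 to 22.8%) and 10.9% (8.40 to 13.7%) of CTFs. Wnt2 and Wnt5b in CBFs1 went the other way. Wnt2 was detected in 1.60% of wild-type cells (0.996 to 2.44%) and 3.08% of reporter cells (2.52 to 3.74%). Wnt5b had 4.28% (3.25 to 5.52%) and 6.47% (5.65 to 7.38%). In the wild-type library Wnt6 stayed higher in glia than in smooth muscle when thinned, but on few cells. It was in 6 of 74 glial cells (8.11%, 3.03 to 16.8%) and 11 of 919 smooth muscle cells (1.20%, 0.599 to 2.13%). Wnt6, Wnt9a and Wnt11 then had values in at most 12 cells of any class. No difference between the libraries is read from their thinned values.

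**Figure D3:**
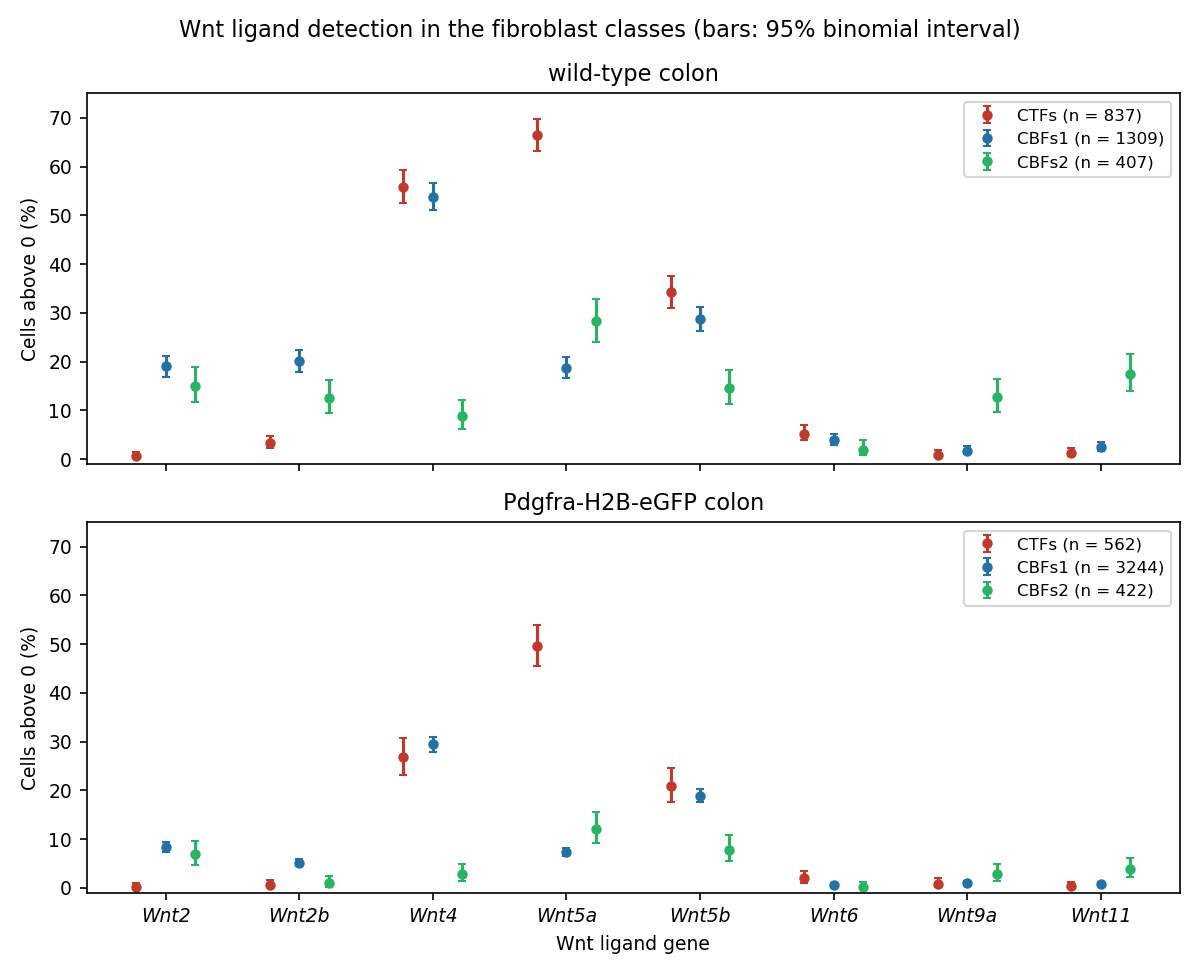
Percentage of cells with a value above 0 (vertical axis) for the 8 Wnt ligands in CTFs, CBFs1 and CBFs2 of the wild-type (top) and reporter library (bottom), with 95% binomial intervals as bars. CTFs lie highest for Wnt5a in both (66.5 and 49.6%), CBFs2 lie lowest for Wnt4 (8.85 and 2.84%), and the libraries differ in depth.

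Pdgfra, which encodes the receptor that the reporter follows and which was on no marker list, gave another order of the fibroblasts. Its level was 8.14 in CTFs, 3.31 in CBFs2 and 1.99 in CBFs1 of the wild-type library, and 1.11, 0.389 and 0.343 in the reporter library. Among wild-type fibroblasts with Pdgfra values of 0, 1 to 2, 3 to 5 and 6 or more (443, 767, 648 and 695 cells), Wnt5a was detected in 16.0% (12.7 to 19.8%), 21.3% (18.4 to 24.3%), 31.9% (28.4 to 35.7%) and 68.6% (65.0 to 72.1%). Median genes in these groups were 2199, 2707, 2669 and 2600, and the share of CTFs was 12.9%, 8.996%, 23.6% and 80.3%. Wnt5a overlapped between the first groups, which differ in depth, and from the group with 1 to 2 on it rose together with the share of CTFs.

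Within each class the lowest and highest groups stood apart in the wild-type library, while some neighbours overlapped. Among wild-type CTFs the share with Wnt5a was 17.5% (8.75 to 29.9%), 50.7% (38.4 to 63.0%), 56.9% (48.6 to 64.8%) and 76.2% (72.4 to 79.6%) in the 4 groups, the lowest of which had 57 cells and a median of 1793 genes against 2568.5 in the highest. Among wild-type CBFs it was 15.8% (12.3 to 19.8%), 18.3% (15.5 to 21.4%), 24.2% (20.5 to 28.3%) and 38.0% (29.8 to 46.6%), with median genes of 2302, 2730.5, 2784 and 2700. Since 5 reporter fibroblasts had a Pdgfra value of 6 or more, that group is left out there, and Wnt5a was detected in 9.65%, 19.6% and 39.6% of the fibroblasts with 0, 1 to 2 and 3 to 5 (2913, 1176 and 134 cells, with median genes of 1346, 1488.5 and 1448.5). The share of CTFs in these groups was 7.66%, 21.9% and 58.2%. Among reporter CTFs Wnt5a had 41.3% (34.7 to 48.0%), 54.7% (48.4 to 60.8%) and 55.1% (43.4 to 66.4%), and the lowest and highest overlapped. Among reporter CBFs it had 7.03% (6.09 to 8.06%), 9.80% (7.96 to 11.9%) and 17.9% (8.91 to 30.4%), where they stood apart. When the cells with Pdgfra were put into 4 equal groups by its share of the cell total, Wnt5a was detected in 22.7%, 23.1%, 41.9% and 72.7% of wild-type fibroblasts. Reporter fibroblasts did not keep the order, with 24.3% (19.8 to 29.3%), 16.4% (12.6 to 20.9%), 17.1% (13.2 to 21.6%) and 29.5% (24.6 to 34.7%). The part of depth in either was not tested.

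The other ligands had other orders. Wnt2 was detected in 13.8%, 19.6%, 13.7% and 2.16% of wild-type fibroblasts by increasing Pdgfra, and in 7.66%, 6.72% and 0 of 134 (limit 2.24%) of reporter fibroblasts. Wnt2b was even over the 3 lower groups of the wild-type library (16.3%, 15.6% and 16.0%) and then 6.62%. In the highest group 80.3% of the fibroblasts were CTFs. Among wild-type CBFs alone Wnt2b had 18.1%, 17.0%, 19.4% and 21.2%, with overlapping intervals and no fall. Wnt2 had 15.5%, 21.1%, 18.0% and 10.2% of the same CBFs. Wnt11 had 2.93%, 4.82%, 7.10% and 2.59% in the wild-type library, and Wnt9a 1.58%, 3.39%, 4.78% and 2.73%, with overlapping intervals in the groups of 1 to 2 and 3 to 5. Reporter fibroblasts had 1.45% for Wnt11 and 1.87% for Wnt9a at 1 to 2 and 0 of 134 for both at 3 to 5, where the limit of 2.24% does not set the groups apart. Within wild-type CBFs alone Wnt9a had 1.81%, 3.30%, 6.26% and 10.2% of 386, 698, 495 and 137 cells, where CBFs2 have more Pdgfra than CBFs1, and the part of this mix was not tested. Reporter CBFs had 1.00%, 1.85% and 0 of 56 cells (limit 5.36%), too few to tell whether they rise. Wnt11 did not keep rising in the same groups of wild-type CBFs, with 3.37%, 5.30%, 8.69% and 7.30%. Wnt4 (38.4%, 51.8%, 40.4% and 54.7%) and Wnt5b (19.4%, 29.5%, 25.8% and 34.8%) had no steady order.

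**Figure D4:**
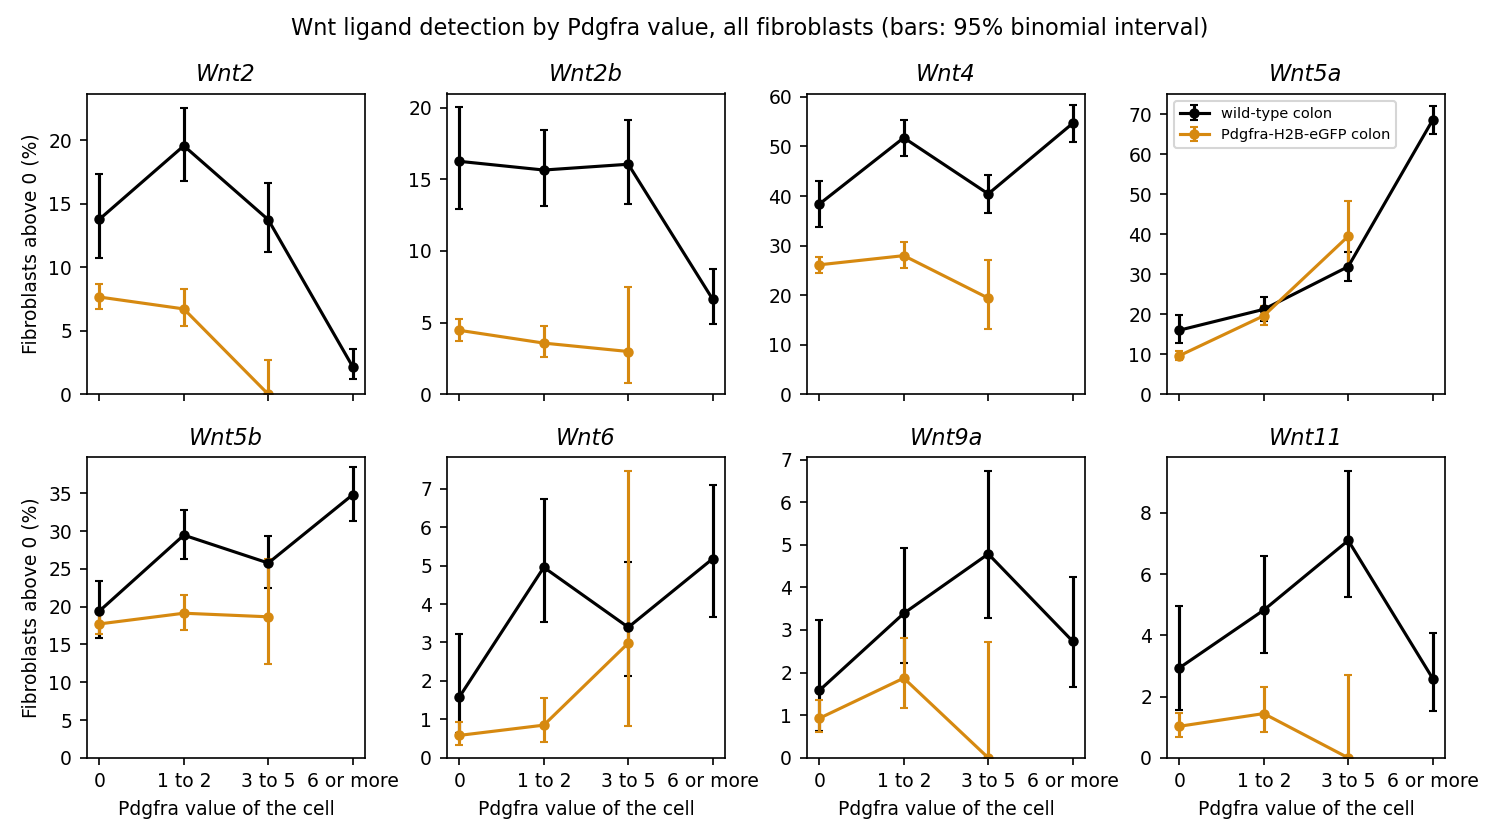
Percentage of fibroblasts with a value above 0 (vertical axes, each with its own scale) for the 8 Wnt ligands by the Pdgfra value of the cell (horizontal axes), in the wild-type (black) and reporter library (orange), with 95% binomial intervals; groups under 30 cells are not drawn. Wnt5a climbs from 16.0 to 68.6% in the wild-type library, and Wnt2 ends at 2.16%.

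Many cells held more than 1 ligand. At least 1 of the 8 was detected in 85.9% of wild-type CTFs (83.4 to 88.2%), 79.1% of CBFs1 (76.8 to 81.2%), 66.6% of CBFs2 (61.8 to 71.2%), 53.4% of smooth muscle cells (50.1 to 56.7%), 47.3% of glia (35.6 to 59.3%) and 22.2% of pericytes (14.1 to 32.2%). Wild-type CTFs had 1 ligand in 29.5% of cells (26.4 to 32.7%) and 2 in 34.6% (31.4 to 38.0%), which overlapped, while 17.9% had 3 and 3.82% had 4 or more. Reporter CTFs had 1 in 47.2% (43.0 to 51.4%) and 2 in 21.2% (17.9 to 24.8%). Glia had 1 ligand in 44.6% of cells and 2 in 2.70%. Reporter cells had at least 1 in 72.2% of CTFs, 53.6% of CBFs1 and 30.3% of CBFs2.

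In CBFs1, cells with Wnt2 also had Wnt2b in 26.9% (21.5 to 32.9%), against 18.5% (16.2 to 21.0%) of those without Wnt2, at median depths of 2810 and 2543 genes. Reporter CBFs1 had 6.99% (4.26 to 10.7%) and 5.05% (4.29 to 5.90%), which overlapped, at 1461.5 and 1350 genes. Wild-type CBFs2 had 11.5% (4.74 to 22.2%) with and 12.7% (9.39 to 16.7%) without Wnt2, at 3218 and 2812.5 genes. In wild-type CTFs, 9 of the 28 cells with Wnt2b had Wnt5a (32.1%, 15.9 to 52.4%), against 67.7% (64.4 to 71.0%) of those without Wnt2b, at median depths of 2495.5 and 2428 genes. So the few CTFs with Wnt2b had less Wnt5a than the rest at a like depth. Wnt4 in the same CTFs did not follow Wnt2b, with 57.1% (37.2 to 75.5%) and 55.9% (52.4 to 59.3%).

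An inflammatory list of 8 genes (such as Saa3, Cxcl5 and Ccl2) was detected with at least 3 genes in 34 wild-type fibroblasts (1.33%) and 795 reporter fibroblasts (18.8%). Among reporter CTFs, the 64 cells of this kind had Wnt5a in 35.9% (24.3 to 48.9%), against 51.4% (46.9 to 55.9%) of the others, with intervals that overlap and median depths of 1710.5 and 1537.5 genes. Among reporter CBFs1, the 689 cells of this kind had Wnt4 in 36.0% (32.4 to 39.7%), against 27.7% (25.9 to 29.5%) of the others, with median depths of 1536 and 1317 genes. The part of depth in either was not tested.

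Genes with the most similar pattern to each ligand were taken as those with the highest Pearson correlation of log2 class means over the 13 wild-type classes, among 12739 genes. The classes come from 1 library and share its depth and free RNA, and the values describe it only. Next to Wnt2 stood Hsd11b1 (r = 0.926), Serpina3g, Pigz, Gab2 and Arsi, and next to Wnt2b Mfap4 (0.968), C1qtnf3, Dnmt3l, Ano5 and Gli2. For Wnt4 they were Smad9 (0.925), Tmem119, Syt17, Tnfsf13b and Hpse. For Wnt5a they were Inhba (0.953), which encodes an activin subunit, Ogn, Nckap5, Ptgs2, the inducible cyclooxygenase, and Podn, and Ogn is also on a marker list.

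Next to Wnt5b stood Cdh11 (0.978), Sdk1, Aard, Hgf and Dnm1. Next to Wnt6 were Galnt17 (0.947), Paqr6, Ispd, Dlgap1 and Zfp536, each with its highest level in glia. Wnt9a had Zfp521 (0.871), Gdf10, Ptx3, Mn1 and Cmklr1, and Wnt11 had Pi16 (0.898), itself on the CBFs2 list, Sult5a1, Scd1, Prokr1 and Prdm8. Among the ligands themselves Wnt5a and Wnt5b were the most alike (0.915), followed by Wnt4 and Wnt5b (0.896). Wnt9a was closer to Wnt2 (0.804) than to Wnt11 (0.586), while Wnt6 and Wnt9a (-0.0952) and Wnt6 and Wnt2 (-0.00845) were near 0. One of the 13 classes is the 32 lymphatic cells, where 2 cells had Wnt2, 1 had Wnt9a and none had Wnt11. Zfp521 had its highest level there (0.469). The part of so small a class in these correlations was not tested.

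Genes that release or hold Wnt ligands were measured beside them. Wls, which carries Wnt proteins to the cell surface, was widespread, with levels of 2.10 in smooth muscle, 1.69 in CBFs1, 1.45 in CTFs and 0.524 in epithelial cells. Counts of these genes past 2-fold stand beside the shares over all genes given above, 5.29% higher and 7.49% lower in CTFs of the wild-type library and 5.04% and 4.11% in those of the reporter library. Of 7 genes of secretion and handling outside the cell, 6 passed the least sum, none was 2-fold higher in CTFs than in CBFs in either library, and 2 were lower in both, Trabd2b, which inactivates Wnt proteins, and the glypican Gpc3. Gpc3 had a level of 2.03 in CBFs2, 0.422 in CBFs1 and 0.0418 in CTFs of the wild-type library. Wls thus did not follow the ligands' split between CTFs and CBFs.

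Of the R-spondins, Rspo3 was lower in CTFs in both libraries. In the wild-type library Rspo3 had levels of 0.310 in CBFs2, 0.164 in CBFs1 and 0.0131 in CTFs. Rspo1 and Rspo3 were both lower in CTFs of wild-type cells, and Rspo3 alone in CTFs of reporter cells, among 2 potentiators that passed the least sum in each. Of the receptors 13 of 16 passed in each library: Fzd1 and Fzd4 were lower in CTFs in both, and Fzd2 and Ror2, a receptor of Wnt5a, were higher in CTFs in the reporter library. Ror2 had a level of 0.177 in wild-type CTFs and 0.0927 in CBFs, and 0.0819 and 0.0346 in the reporter library.

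Secreted inhibitors were divided. Of 7 that passed in the wild-type library, Wif1, which binds Wnt proteins directly, and Dkk2 were higher in CTFs, and Sfrp1, Sfrp2, Frzb and Sfrp4, of the family of secreted Frizzled-related proteins, were lower. Among 6 in the reporter library Wif1 was higher and the same 4 were lower. Wif1 had levels of 0.481 in CTFs and 0.00874 in CBFs of the wild-type library and of 0.335 and 0.00736 in the reporter library. The glia, with the highest Wnt6, also had the highest levels of Sfrp1 (12.8), Sfrp5 (2.31) and the intracellular inhibitor Nkd2 (1.36) among the wild-type classes.

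Genes that commonly respond to canonical Wnt signals were mixed. Of 7 that passed in the wild-type library, Lgr5, Nkd1, Lef1 and Tcf7 were higher in CTFs and Axin2 was lower. Among 6 in reporter cells Nkd1 and Lef1 were higher. In the epithelium Axin2 had a level of 0.464 and Lgr5, the stem cell receptor for R-spondins, of 0.475 in dividing cells, against 0.261 and 0.168 over all epithelial cells. Axin2 had 0.0287 in CTFs, 0.0688 in CBFs1 and 0.0934 in CBFs2.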

How the data were processed

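The authors aligned reads to the mouse transcriptome (mm10) with Cell Ranger, filtered genes and cells in Seurat 3.1 under R 3.6.2 and applied SCTransform. The score values as deposited are labelled raw counts. They were taken as UMI counts that the authors had corrected to a common depth and kept as whole numbers, which was read from the values and is stated nowhere in the labels. The other table that the authors deposited is the natural log of 1 plus the same score. No count model was used. The wild-type table holds more cells than the methods of the paper state, so its cells are not exactly the set described there.

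Python 3.11.15, numpy 2.4.6, scipy 1.17.1, pandas 2.3.3, scanpy 1.11.5 and matplotlib 3.10.9 were used. A cell entered a class when its mean natural log value over the marker list reached a threshold set from the lists alone (1.3 for epithelial and fibroblast, 1 for smooth muscle, 0.7 for pericyte, 0.8 for endothelial and 0.5 for glial cells in the wild-type library; 0.8 for fibroblasts in the reporter library). Left out were 374 wild-type cells with markers of several classes, 111 and 82 immune or erythroid cells, and 59 and 58 cells of no class. CTFs and CBFs were divided by the difference of their lists (-0.5 and -0.35), and CBFs2 by their own list (0.8 and 0.5).

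Scrublet marked 7 wild-type cells (0.0934%) and 5 reporter cells (0.113%) as doublets, too few to count as a working call, so doublets were treated only by leaving out cells of several classes. Genes with at least 20 summed values in both classes together entered the counts. The ratio was also computed on simulated data, independent Poisson counts drawn around the CBFs means with set folds. This checks the calculation only, since it holds no gating error and no free RNA. Named genes are the 8 ligands, the other listed Wnt genes, Pdgfra and the markers, the pathway list, and for each ligand the 5 genes most correlated over classes, among genes with a level of at least 0.1 in some class. Members and lists were chosen with earlier results of these data known. Gene positions are from GENCODE M21 (GRCm38), whose symbols matched 97.7% and 97.6% of the listed genes.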

Additional observations from a re-analysis of the deposited data

Results flagged for a closer look

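Wnt4 and Wnt5b were detected more often in CTFs with Wnt5a in the wild-type library, and not in the reporter library. In wild-type CTFs, 61.9% of cells with Wnt5a (57.8 to 66.0%) and 43.9% of cells without it (38.03 to 49.96%) had Wnt4, a difference of 18.0 percentage points. In reporter CTFs the shares were 23.7% (18.8 to 29.1%) and 30.0% (24.8 to 35.7%), a difference of -6.38 points, with overlapping intervals. For Wnt5b the difference was 14.0 points in the wild-type library (34.9 to 43.1% with and 20.04 to 30.5% without Wnt5a) and -1.12 points in the reporter library, where the intervals overlapped almost wholly (20.4%, 15.9 to 25.6%, and 21.6%, 16.9 to 26.8%). Cells with Wnt5a had more genes detected in both libraries, with medians of 2668 against 2037.5 in the wild-type and 1658 against 1466 in the reporter library. The difference between the libraries was not tested, and neither was the part of depth in it.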

How the results depend on the processing

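Wnt5a stayed at least 2-fold higher in CTFs than in CBFs under all 11 alternatives in both libraries, and Wnt4 at least 2-fold lower in CBFs2 than in CBFs1 under all 10. Wnt2 stayed lower in CTFs under all 11 in both, by at least 2-fold under 11 for wild-type and 9 for reporter cells. Among these alternatives, leaving out the marked doublets removed 0 wild-type fibroblasts, and the mitochondrial limit removed 0 reporter cells. Neither could change a ratio in that library. A division by Pdgfra alone, at 4 or more in the wild-type and 1 or more in the reporter library, moved most values. In the wild-type library Wnt2 went to -1.73, Wnt2b to -0.79, Wnt5a to 2.65 and Wnt11 to -0.31. Wnt9a changed sign to 0.16 there, with 1 ligand at least 2-fold lower in CTFs. In the reporter library Wnt5a went to 1.37, Wnt2 to -0.27 and Wnt2b to -0.22, with 0 ligands lower. Thinning to 1000 values gave -1.38 for Wnt2, -1.48 for Wnt2b, 2.66 for Wnt5a and -0.81 for Wnt11 with 2 ligands lower in the wild-type library, and 2.68 for Wnt5a in the reporter library, and left 0 ligands higher in CBFs2 in either, where in the wild-type library Wnt9a (1.60) and Wnt11 (0.47, from 2.54) no longer reached the least sum and Wnt11 fell below 2-fold. A pseudocount of 0.1 gave -1.66, -1.19, 2.69 and -0.63 for Wnt2, Wnt2b, Wnt5a and Wnt11 with 2 lower in the wild-type library, and 2.31 for Wnt5a with 0 lower in the reporter library. For CBFs2 over CBFs1 it left 1 lower in each library and 0 higher in the reporter library. With this pseudocount 2.57% of all genes were lower in wild-type CTFs and 1.10% in reporter CTFs. In CBFs2 1.13% were lower in the wild-type library, and 0.702% lower and 0.702% higher in the reporter library. Thinning and a larger pseudocount shrink ratios of scarce genes by construction. Wnt2 in CBFs2 over CBFs1 was 0.60 in the wild-type library when thinned, from 11 CBFs2 and 21 CBFs1 with Wnt2, whose shares overlapped. Asking for at least 100 summed values left 3 ligands lower in wild-type CTFs, without Wnt9a, and 1 ligand higher in wild-type CBFs2 and 0 in reporter CBFs2. Of the genes with such sums, 6.81% were lower in wild-type CTFs, 5.58% higher in wild-type CBFs2 and 2.26% higher in reporter CBFs2. Without inflammatory fibroblasts 2 ligands were higher in reporter CTFs, with Wnt6 at 1.02, where 6.06% of all genes were. Without cells over 10% mitochondrial values (3043 of the wild-type, 0 of the reporter library) Wnt5a had 3.32, Wnt6 joined the ligands lower in CBFs2 (-1.04), and the shares were 22.5% for Wnt2 in CBFs1 and 62.7% for Wnt4, 78.4% for Wnt5a and 42.2% for Wnt5b in CTFs. Without the 5% of cells with the highest doublet scores, an alternative chosen after seeing the data, as were those of CBFs2 over CBFs1, Wnt5a had 3.15 in the wild-type library. In the highest of 4 equal groups by Pdgfra as a share of the cell total, over cells without Pdgfra, Wnt2 had -3.36 in wild-type cells and Wnt5a 1.86 in reporter cells, and Wnt11 in reporter cells changed sign to 0.69 from -1.09. Apart from what the construction shows, the cause was not tested. No paired analysis was possible because each condition is 1 library.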

Other observations

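Other Wnt genes had their own cells. Wnt16 was a gene of smooth muscle in the wild-type library, with values in 18.0% of these cells (15.5 to 20.6%) at a level of 0.282, against 3.97% of CBFs1 (2.98 to 5.18%), 1.43% of CTFs (0.743 to 2.49%) and 2 of 2763 epithelial cells. Smooth muscle held 74.0% of its values. Wnt10b went with Wnt9a and Wnt11: it was detected in 10.8% of CBFs2 (7.97 to 14.2%), 0.993% of CBFs1 (0.530 to 1.69%), 0.119% of CTFs and 0.362% of epithelial cells (0.174 to 0.665%). Its log2 ratio of CBFs2 over CBFs1 was 2.90 for wild-type and 2.07 for reporter cells, and 3.55% of reporter CBFs2 (2.00 to 5.79%) and 0 of 562 reporter CTFs had it.

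Wnt8b and Wnt3 were found in the epithelium. Wnt8b was detected in 54 epithelial cells, 4.28% of colonocytes (2.76 to 6.30%), 0.477% of goblet cells (0.130 to 1.22%) and 2.36% of epithelial cells outside the named kinds (1.52 to 3.50%, overlapping the colonocytes), and in none of the 2553 fibroblasts or 919 smooth muscle cells. In the colonocytes 86.6% of cells had over 10% mitochondrial values, and the part of this was not tested. Wnt3 was detected in 7 cells, 6 of them among the 85 enteroendocrine cells (7.06%, 2.63 to 14.7%). Wnt10a was detected in 4 fibroblasts, 3 of them CTFs.

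Each condition is 1 library of pooled mice, so no difference between mice is known, and the libraries differ in strain, sort and kit at once. The values, labelled raw counts, were read as counts already corrected for depth, and no uncorrected counts were at hand. Classes rest on marker lists, and cells near a boundary are not set apart. The glial class had 74 cells and the pericyte class 90. Wnt9a, Wnt11 and, outside glia and smooth muscle, Wnt6 rest on few cells with low values. RNA gives no measure of secreted protein, and position along the crypt was not measured here.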
